A study of Homo sapiens with 6 samples.

Results

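The 10 genes described here encode proteins that coat lipid droplets, break down the triacylglycerol stored in them, or make it. They were chosen by symbol from the 20332 genes of a processed RNA-seq table. They are PLIN2 and PLIN3 (coats), PNPLA2, LIPE and MGLL (lipases), ABHD5 (a lipase co-activator), G0S2 and HILPDA (lipase inhibitors), and DGAT1 and DGAT2 (triacylglycerol synthesis). All 10 had a row in the table, and all 10 were at or above 1 TPM (transcript abundance scaled by length and to the same total of 1000000 in each library) in all 6 libraries, the lowest value being 4.27 TPM. The libraries came from LX-2, an established line of human hepatic stellate cells. In 3 of them the cells had received TGF-β1 with a compound known only as 11 at 10 μM, and in the other 3 TGF-β1 with the solvent DMSO, each for 48 h. Both groups therefore carried TGF-β1, and cells without it were not analysed here. Separate cultures are not stated in the labels, so each p-value rests on a spread between libraries that may be technical only.

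A lipid droplet is a core of triacylglycerol and sterol esters under a phospholipid monolayer. Perilipins cover that surface and limit the access of lipases to the core. PNPLA2, also called ATGL, removes the first fatty acid from triacylglycerol, LIPE (hormone-sensitive lipase) acts mainly on the diacylglycerol left, and MGLL (monoacylglycerol lipase) releases the last fatty acid from glycerol. ABHD5, also called CGI-58, activates PNPLA2, whereas G0S2 and HILPDA bind and inhibit it. DGAT1 and DGAT2 add the last fatty acid when triacylglycerol is made. Quiescent stellate cells of the liver are known for droplets rich in retinyl esters, which they lose as they become myofibroblasts.

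G0S2 had the largest fold change of the 10 members with compound 11, and MGLL, PNPLA2, DGAT2, PLIN2 and ABHD5 were also higher. G0S2 averaged 150 ± 7.27 TPM with compound 11 and 10.7 ± 0.401 TPM with DMSO (SD, n = 3 each). PLIN3 was slightly lower, and HILPDA, LIPE and DGAT1 did not pass the test. In limma across all 12067 genes tested, 6 of the 10 members rose at a Benjamini-Hochberg adjusted p below 0.05, against 25.3% of all tested genes. By the same test 1 member fell, against 24.3% of tested genes, and 3 did not pass. In either direction 7 members passed, where 49.6% of tested genes did, so passing alone was common in this comparison. The median log2 fold change of the 10 members was 0.43, and that of all tested genes was -0.001. Fold changes on the log2 scale are compound 11 over DMSO and were computed on log2(TPM + 1), which understates the change of low genes. A fold with no log2 is one mean TPM divided by the other.

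**Figure D1:**
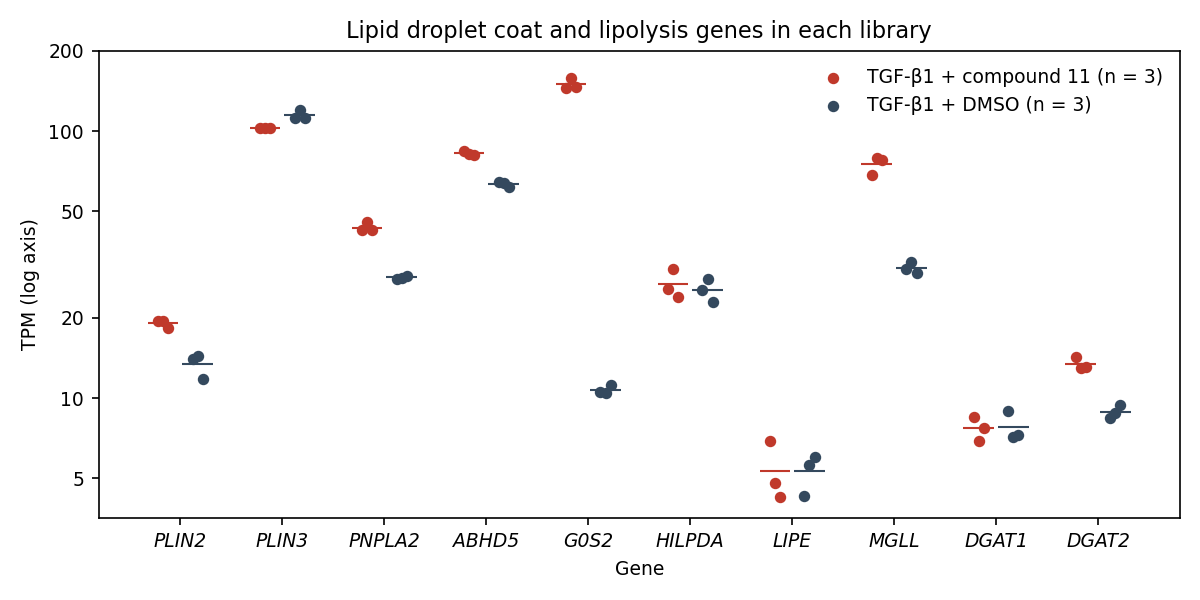
TPM of the 10 genes in each library on a log axis, with TGF-β1 + compound 11 left of TGF-β1 + DMSO. Points are libraries (n = 3 per group) and bars are group means. G0S2 sat between 145 and 158 TPM with compound 11 and between 10.4 and 11.1 TPM with DMSO, while the groups overlapped for HILPDA, LIPE and DGAT1.

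In RefSeq (GRCh38.p14), promoter windows were matched by symbol and used for 6 members, PLIN2, PLIN3, PNPLA2, ABHD5, G0S2 and LIPE. MGLL, DGAT2 and HILPDA had no window matched and are named only. DGAT1 was left out of the search. The 250 bases before the annotated start are shown for G0S2, PNPLA2, ABHD5 and PLIN2, the members with a window that were higher with compound 11, so that the letters in front of genes that moved together can be read side by side. Each runs 5′ to 3′ on the strand of its gene. Only the first listed RefSeq window of a gene was used, and windows at other starts were not searched. The windows of PLIN2 and ABHD5 lie inside the spans of these genes in GENCODE v29. Those spans are 19108375 to 19149290 of chromosome 9 and 43690108 to 43734371 of chromosome 3. For these 2 genes the window is thus not upstream of the whole annotated gene. Capitals mark every match, on either strand, to any of 6 motifs: the nuclear receptor hexamer AGGTCA, the hypoxia response core ACGTG, the AP-1 site TGANTCA, the FOXO site TGTTTAC, the TATA box TATAAA and the kappaB consensus.
G0S2 (chr1:209675162-209675411, + strand): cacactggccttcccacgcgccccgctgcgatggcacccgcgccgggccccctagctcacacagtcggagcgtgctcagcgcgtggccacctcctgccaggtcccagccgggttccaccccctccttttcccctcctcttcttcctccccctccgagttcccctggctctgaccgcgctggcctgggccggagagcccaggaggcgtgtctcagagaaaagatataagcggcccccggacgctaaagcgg
PNPLA2 (chr11:818664-818913, + strand): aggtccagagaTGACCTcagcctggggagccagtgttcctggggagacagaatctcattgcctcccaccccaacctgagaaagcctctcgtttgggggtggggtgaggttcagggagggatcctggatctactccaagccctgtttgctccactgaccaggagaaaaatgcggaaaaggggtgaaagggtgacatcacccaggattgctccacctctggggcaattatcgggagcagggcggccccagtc
ABHD5 (chr3:43690620-43690869, + strand): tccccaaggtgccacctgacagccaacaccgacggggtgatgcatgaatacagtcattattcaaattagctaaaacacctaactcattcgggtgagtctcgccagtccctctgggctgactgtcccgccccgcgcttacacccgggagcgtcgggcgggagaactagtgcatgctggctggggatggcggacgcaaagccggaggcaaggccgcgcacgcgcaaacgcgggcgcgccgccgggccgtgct
PLIN2 (chr9:19127493-19127742, - strand): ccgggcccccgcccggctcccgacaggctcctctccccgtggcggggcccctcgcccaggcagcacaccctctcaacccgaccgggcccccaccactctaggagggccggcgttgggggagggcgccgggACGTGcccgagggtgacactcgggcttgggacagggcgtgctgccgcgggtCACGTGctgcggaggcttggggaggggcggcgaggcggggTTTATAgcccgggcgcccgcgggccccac

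The 4 windows share no motif among those searched. PLIN2 holds the core ACGTG at bases -120 to -116 and again at -68 to -64 before the RefSeq start used. The second of these overlaps a match on the opposite strand at -69 to -65, so that the letters read CACGTG, and a TATA box on the opposite strand lies at -29 to -24. PNPLA2 holds the hexamer AGGTCA on the opposite strand at -239 to -234. G0S2 and ABHD5 hold no match to any of the 6 motifs, which says only that these letters are absent from these windows. Of the 35116 RefSeq windows of the same length, 18.5% hold ACGTG, 12.1% AGGTCA, 10.7% TATAAA, 10.0% the kappaB consensus, 6.6% TGANTCA and 3.0% TGTTTAC. The windows of G0S2 and PLIN2 are 69.2% and 78.0% G or C, those of PNPLA2 and ABHD5 58.4% and 63.6%.

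The coat genes PLIN2 and PLIN3 lay on opposite sides of 0 in their fold changes. PLIN2, the perilipin found on droplets of most cell types, had 19.4, 19.4 and 18.3 TPM in the compound 11 libraries and 14.0, 14.4 and 11.8 TPM in the DMSO libraries. All 3 compound 11 libraries lay above all 3 DMSO libraries. The groups failed to overlap for 57.8% of tested genes, with compound 11 above DMSO for 29.3% and below it for 28.4%. PLIN2 was 1.42-fold higher with compound 11 (log2 fold change 0.48, SE 0.09; adjusted p = 0.00201 by limma with Benjamini-Hochberg adjustment).

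PLIN3, also called TIP47, moves between the cytosol and small or growing droplets and was the more abundant coat gene in every library. It had 103, 103 and 102 TPM with compound 11 and 112, 120 and 112 TPM with DMSO, so the groups did not overlap although they lay close. It was 1.11-fold lower with compound 11 (log2 fold change -0.15, SE 0.04; adjusted p = 0.0157 by limma with Benjamini-Hochberg adjustment). DMSO replicate 2 was the highest of the 6 libraries. Without it the log2 fold change was -0.12 and the call was lost (adjusted p = 0.0621, where all alternatives ranged from 0.0066 to 0.0621). The 2 coat genes together summed to 122 ± 1.10 TPM with compound 11 and 128 ± 5.42 TPM with DMSO (SD, n = 3 each).

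PNPLA2, the first lipase of the pathway, spans 6672 bp of chromosome 11, from 818902 to 825573 (GRCh38, GENCODE v29). It had 42.6, 45.6 and 42.4 TPM with compound 11 and 28.0, 28.2 and 28.7 TPM with DMSO. The lowest compound 11 library was well above the highest DMSO library. It was 1.54-fold higher (log2 fold change 0.60, SE 0.06; adjusted p = 2.63e-05 by limma with Benjamini-Hochberg adjustment). ABHD5, its co-activator, had 84.0, 81.9 and 81.5 TPM with compound 11 and 64.3, 64.2 and 61.8 TPM with DMSO. These groups were also apart, and ABHD5 was 1.30-fold higher (log2 fold change 0.37, SE 0.04; adjusted p = 0.000109 by limma with Benjamini-Hochberg adjustment). The 5′ end of ABHD5 overlaps that of ANO10, a gene on the opposite strand, over 1487 bp, and whether the authors' counting used strand is not given in the sources used here. ANO10 was itself higher with compound 11, at 145 ± 4.25 TPM against 102 ± 6.86 TPM with DMSO, and its part in the ABHD5 values was not tested.

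MGLL, which completes lipolysis and also degrades the endocannabinoid 2-arachidonoylglycerol, had 68.2, 79.2 and 77.9 TPM in the compound 11 libraries and 30.3, 32.3 and 29.3 TPM in the DMSO libraries. Every compound 11 library was above every DMSO library, and compound 11 replicate 1 was the lowest of its group. MGLL was 2.45-fold higher (log2 fold change 1.26, SE 0.07; adjusted p = 6.19e-07 by limma with Benjamini-Hochberg adjustment), and 2.06% of tested genes had a higher log2 fold change. The gene spans 363129 bp of chromosome 3, from 127689062 to 128052190 (GRCh38, GENCODE v29), on the minus strand. It shares 550 bp at its 5′ end with SEC61A1 on the opposite strand, which was at 349 ± 8.93 TPM with compound 11 and 341 ± 5.35 TPM with DMSO and did not pass the test.

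LIPE was the least abundant member in both groups by its mean and the most variable. It had 6.94, 4.80 and 4.27 TPM with compound 11 and 4.31, 5.63 and 6.02 TPM with DMSO, and the groups overlapped throughout their range. Its coefficient of variation was 26.5% with compound 11 and 16.8% with DMSO. The log2 fold change was -0.01 with a 95% interval of -0.40 to 0.39 (adjusted p = 0.974 by limma with Benjamini-Hochberg adjustment). Changes inside that interval remain compatible with the values. The 3 lipase genes PNPLA2, LIPE and MGLL together summed to 124 ± 5.93 TPM with compound 11 and 64.3 ± 1.71 TPM with DMSO (SD, n = 3 each).

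Of the inhibitors of PNPLA2, G0S2 passed the test and HILPDA did not; the difference between their responses was not itself tested. G0S2, a small protein first described as a gene induced when blood cells leave quiescence, had 145, 158 and 146 TPM with compound 11 and 10.5, 10.4 and 11.1 TPM with DMSO. The groups were far apart, and G0S2 was 14.0-fold higher (log2 fold change 3.69, SE 0.06; adjusted p = 2.26e-10 by limma with Benjamini-Hochberg adjustment). By log2 fold change it ranked 12 of the 12067 tested genes, counted from the highest. In GENCODE v29 (GRCh38) the protein-coding gene G0S2 spans 969 bp of chromosome 1, from 209675420 to 209676388, with 1 annotated transcript. The annotated antisense gene AL031316.1 covers the same stretch on the other strand and was not analysed here; without strand, reads of such a pair cannot be told apart. PLIN3, PNPLA2, LIPE and DGAT2 also overlap annotated antisense genes that were not analysed here, while PLIN2 overlaps no annotated gene. HILPDA overlaps no gene on the opposite strand but 2 on its own strand. LIPE, DGAT1 and DGAT2 also overlap annotated genes on their own strand. Strand does not separate such genes, and they were not analysed here.

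HILPDA, the hypoxia-inducible inhibitor, had 25.7, 30.4 and 24.0 TPM with compound 11 and 25.5, 27.8 and 23.0 TPM with DMSO. The groups overlapped. The log2 fold change was 0.07 with a 95% interval of -0.16 to 0.29 (adjusted p = 0.625 by limma with Benjamini-Hochberg adjustment). G0S2 made up 83.9% to 85.9% of the summed TPM of the 2 inhibitors with compound 11 and 27.2% to 32.6% with DMSO. Their sum was 176 ± 10.4 TPM with compound 11 and 36.1 ± 2.06 TPM with DMSO (SD, n = 3 each).

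Of the 2 acyltransferases, which are unrelated in sequence, DGAT2 passed and DGAT1 did not. DGAT2, known for esterifying newly made fatty acids, had 14.2, 13.0 and 13.0 TPM with compound 11 and 8.40, 8.83 and 9.45 TPM with DMSO. The groups did not overlap, and DGAT2 was 1.51-fold higher (log2 fold change 0.54, SE 0.09; adjusted p = 0.000888 by limma with Benjamini-Hochberg adjustment). DGAT1, which resides in the endoplasmic reticulum, had 8.52, 6.92 and 7.70 TPM with compound 11 and 8.96, 7.15 and 7.27 TPM with DMSO. Here the groups overlapped, and the log2 fold change was -0.01 with a 95% interval of -0.28 to 0.26 (adjusted p = 0.949 by limma with Benjamini-Hochberg adjustment). The 3′ end of DGAT1 shares 139 bp with HSF1 on the opposite strand, which was at 62.7 ± 3.54 TPM with compound 11 and 58.2 ± 3.75 TPM with DMSO and did not pass the test.

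**Figure D2:**
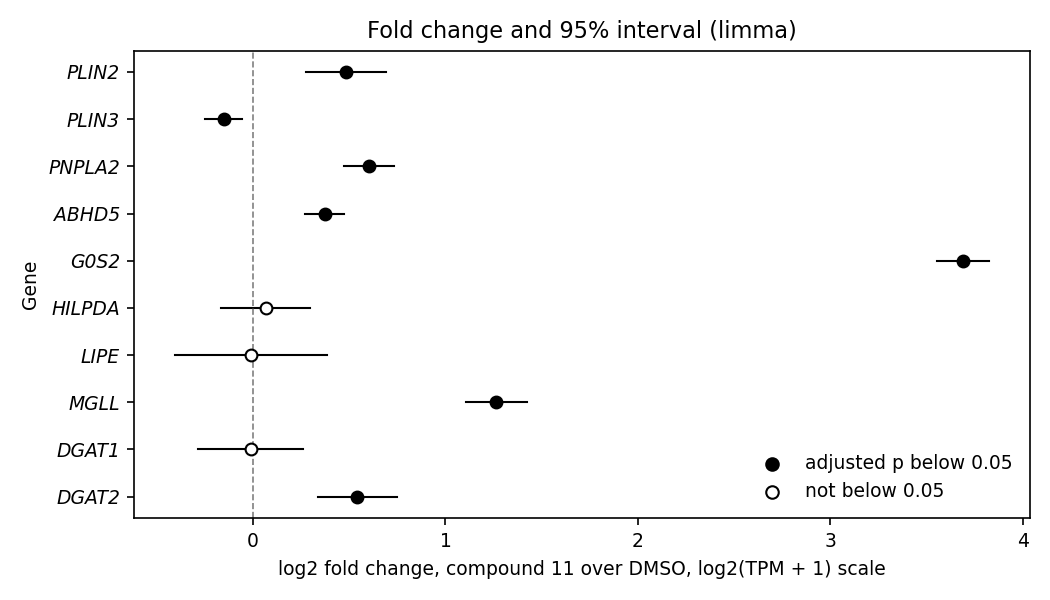
Log2 fold change of each gene, compound 11 over DMSO, on the log2(TPM + 1) scale, with the 95% interval from limma (n = 3 libraries per group). Filled points had an adjusted p below 0.05. G0S2 lies at 3.69 and MGLL at 1.26, the other filled points lie between -0.15 and 0.60, and the intervals of HILPDA, LIPE and DGAT1 include 0.

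Levels are set in order between genes here on the assumption that the values are TPM, which are scaled by transcript length. That scaling was not checked. With compound 11 the order of mean TPM was G0S2, PLIN3, ABHD5, MGLL, PNPLA2, HILPDA, PLIN2, DGAT2, DGAT1 and LIPE, and the libraries of neighbouring genes did not overlap except for DGAT1 and LIPE. With DMSO it was PLIN3, ABHD5, MGLL, PNPLA2, HILPDA, PLIN2, G0S2, DGAT2, DGAT1 and LIPE, and there the libraries of DGAT2 and DGAT1 overlapped. In the DMSO libraries MGLL, PNPLA2 and HILPDA lay close together, at means of 30.7, 28.3 and 25.4 TPM. G0S2 was thus the most abundant member in the first group and ranked 7 of 10 in the other. It took 28.0% to 29.2% of the summed TPM of the 10 members with compound 11 and 3.27% to 3.71% with DMSO. That sum was 526 ± 14.2 TPM with compound 11 and 308 ± 9.22 TPM with DMSO. Without G0S2 the other 9 members summed to 376 ± 6.99 TPM with compound 11 and 298 ± 9.55 TPM with DMSO (SD, n = 3 each), which is 1.26-fold more.

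Ratios of paired genes within a library do not depend on how that library was scaled. PNPLA2 over its inhibitor G0S2 was 0.294, 0.288 and 0.290 in the compound 11 libraries and 2.67, 2.70 and 2.58 in the DMSO libraries. If the values are scaled by length, the PNPLA2 transcript was the less abundant of the pair with compound 11 and the more abundant with DMSO. The log2 difference of the ratio was -3.19. PNPLA2 over HILPDA was 1.66, 1.50 and 1.77 with compound 11 and 1.10, 1.01 and 1.25 with DMSO (log2 difference 0.55). Compound 11 libraries thus lay below all DMSO libraries in the ratio of PNPLA2 to G0S2, and above all of them in the ratio of PNPLA2 to HILPDA.

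PNPLA2 over its co-activator ABHD5 was 0.507, 0.557 and 0.521 with compound 11 and 0.436, 0.439 and 0.465 with DMSO (log2 difference 0.24). PLIN2 over PLIN3 was 0.189, 0.188 and 0.179 with compound 11 and 0.126, 0.12 and 0.105 with DMSO (log2 difference 0.67). DGAT1 over DGAT2 was 0.598, 0.534 and 0.591 with compound 11 and 1.07, 0.810 and 0.769 with DMSO (log2 difference -0.61). For each of the 5 ratios the groups did not overlap. An exact two-sided permutation test gave p = 0.1 for each, also after Benjamini-Hochberg adjustment over the 5, and 0.1 is the smallest that 3 against 3 libraries allow.

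**Figure D3:**
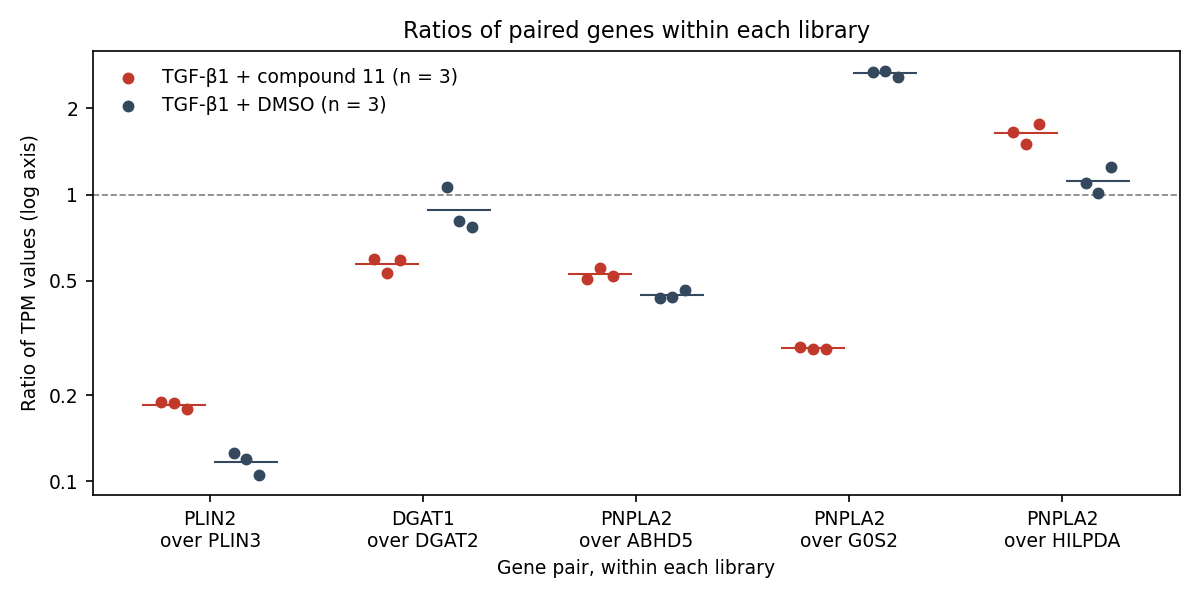
Ratios of the TPM of 2 genes within each library, on a log axis, with TGF-β1 + compound 11 left of TGF-β1 + DMSO; points are libraries (n = 3 per group), bars are means and the dashed line marks a ratio of 1. PNPLA2 over G0S2 lay between 0.288 and 0.294 with compound 11 and between 2.58 and 2.70 with DMSO.

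Genes that neighbour the members in lipid storage were described through 9 lists, with 135 genes in the table and 94 tested. Of these 94, 34 rose and 22 fell, or 36.2% and 23.4%, where 25.3% and 24.3% of all tested genes did. The same 25.3% and 24.3% are the background of the counts given for each single list below. Other coat genes, known mainly from fat and oxidative tissues, were near or at 0. PLIN1 and PLIN4 did not exceed 0.20 TPM in any library, and PLIN5, CIDEA and CIDEC were listed at 0 in all 6. Of 10 tested genes for other coat and assembly factors, 3 rose and 2 fell (median log2 fold change -0.0004); 1 fell without DMSO replicate 1 or 2 or compound 11 replicate 1 or 3. LDAF1, which helps seipin start droplets, was at 24.4 ± 1.14 TPM with compound 11 and 15.2 ± 0.744 TPM with DMSO. AUP1, a protein of droplets and the endoplasmic reticulum, was 1.43-fold higher and the lipid transfer protein VPS13C 1.34-fold higher. PCYT1A, the rate-limiting enzyme of phosphatidylcholine synthesis, was 1.19-fold lower.

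Of 16 tested genes of the steps before the DGATs, 6 rose and 3 fell (median log2 fold change 0.05). GPAT3, which starts glycerolipid synthesis, was at 5.42 ± 0.495 TPM with compound 11 and 1.76 ± 0.0877 TPM with DMSO. LPIN2, a phosphatidate phosphatase, was 1.37-fold higher. The acyl-CoA synthetases ACSL3 and ACSL4 went the other way and were 1.59-fold and 1.27-fold lower with compound 11. ACSL3, which is known on nascent droplets, was at 178 ± 12.2 TPM with compound 11 and 284 ± 15.1 TPM with DMSO (SD, n = 3 each).

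Of 12 tested genes for other neutral lipid hydrolases, 4 rose and 4 fell (median log2 fold change 0.16). The number that fell was 2 without DMSO replicate 2 or 3 or compound 11 replicate 2 or 3. LIPA, the acid lipase of lysosomes, was 1.51-fold lower, at 86.1 ± 2.42 TPM with compound 11 and 130 ± 2.89 TPM with DMSO. ABHD6, another monoacylglycerol hydrolase, was 1.55-fold higher, DDHD1, a phospholipase, 1.38-fold higher, and LIPG, endothelial lipase, 2.26-fold higher. Of 5 tested genes of fatty acid uptake and carriage, 2 rose and 1 fell (median log2 fold change 0.05), and 1 rose without DMSO replicate 2 or compound 11 replicate 1 or 2. VLDLR and SLC27A4 were 1.41-fold and 1.15-fold higher and DBI, the acyl-CoA binding protein, 1.14-fold lower. FABP5, a fatty acid binding protein, was at 9.06 TPM with compound 11 and 8.72 TPM with DMSO and did not pass.

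Protein kinase A, which cAMP activates, is known to phosphorylate perilipins and LIPE and so to start lipolysis in fat cells. Of 15 tested genes of this control, 3 rose and 4 fell (median log2 fold change -0.02). The number that fell was 2 without DMSO replicate 1 or 2 or compound 11 replicate 1. PRKACA, a catalytic subunit, was at 92.0 ± 1.92 TPM with compound 11 and 136 ± 1.83 TPM with DMSO. Another catalytic subunit, PRKACB, was at 34.4 ± 2.75 TPM with compound 11 and 34.9 ± 0.158 TPM with DMSO and did not pass. PDE4D, which degrades cAMP, was 2.18-fold higher. The cyclase ADCY3 was 1.34-fold and ABHD15, a partner of phosphodiesterase in insulin action on fat cells, 1.31-fold higher. The phosphodiesterase genes PDE3A and PDE3B were too low to be tested. They did not exceed 0.271 and 0.024 TPM in any library. Of 6 tested genes for turnover and delivery of PNPLA2, 2 rose and 1 fell (median log2 fold change -0.03), and 1 rose without DMSO replicate 1 or compound 11 replicate 3. COP1, a ubiquitin ligase that targets PNPLA2, was 1.18-fold higher, UBXN4 1.15-fold higher, and ARF1, a GTPase needed to deliver PNPLA2 to droplets, 1.15-fold lower. VCP was at 272 TPM with compound 11 and 287 TPM with DMSO and did not pass.

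PPAR receptors bind fatty acids and are known to induce PLIN2, PNPLA2 and G0S2 in other tissues. Of 7 tested receptors and partners, 4 rose and 0 fell (median log2 fold change 0.30), where 25.3% and 24.3% of all tested genes did. As single libraries were left out, 3 to 4 rose. PPARG was too low to be tested, at 0.691 ± 0.147 TPM with compound 11 and 1.10 ± 0.355 TPM with DMSO. PPARA was at 17.4 ± 3.45 TPM with compound 11 and 6.99 ± 0.890 TPM with DMSO, and PPARD, RXRA and RXRB were 1.24-fold, 1.38-fold and 1.19-fold higher. Of 7 other PPAR target genes tested, 4 rose and 1 fell (median log2 fold change 0.24), and 0 fell without DMSO replicate 1 or 3 or compound 11 replicate 1. ANGPTL4, a secreted inhibitor of lipoprotein lipase, had 24.9, 27.8 and 28.6 TPM with compound 11 and 3.35, 3.65 and 4.85 TPM with DMSO, a 6.86-fold difference. CPT1A, which admits fatty acids to mitochondria, was 1.49-fold higher, and the beta-oxidation enzymes ACADVL and ACAA2 were 1.24-fold and 1.19-fold higher.

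HILPDA and PLIN2 are known to respond to hypoxia-inducible factors, so genes of that response were set beside them. Of 16 tested, 6 rose and 6 fell (median log2 fold change 0.05). The subunit HIF1A was at 325 ± 11.7 TPM with compound 11 and 477 ± 19.1 TPM with DMSO, and EPAS1 was 1.39-fold lower. VEGFA and BNIP3 were 2.28-fold and 1.39-fold higher. Other genes of this list that passed went both ways. NDRG1, ANKRD37, KDM3A and EGLN1 were 2.41-fold, 3.68-fold, 1.51-fold and 1.20-fold higher. ADM, PDK1, SLC2A1 and P4HA1 were 1.93-fold, 1.40-fold, 1.32-fold and 1.16-fold lower with compound 11.

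**Figure D4:**
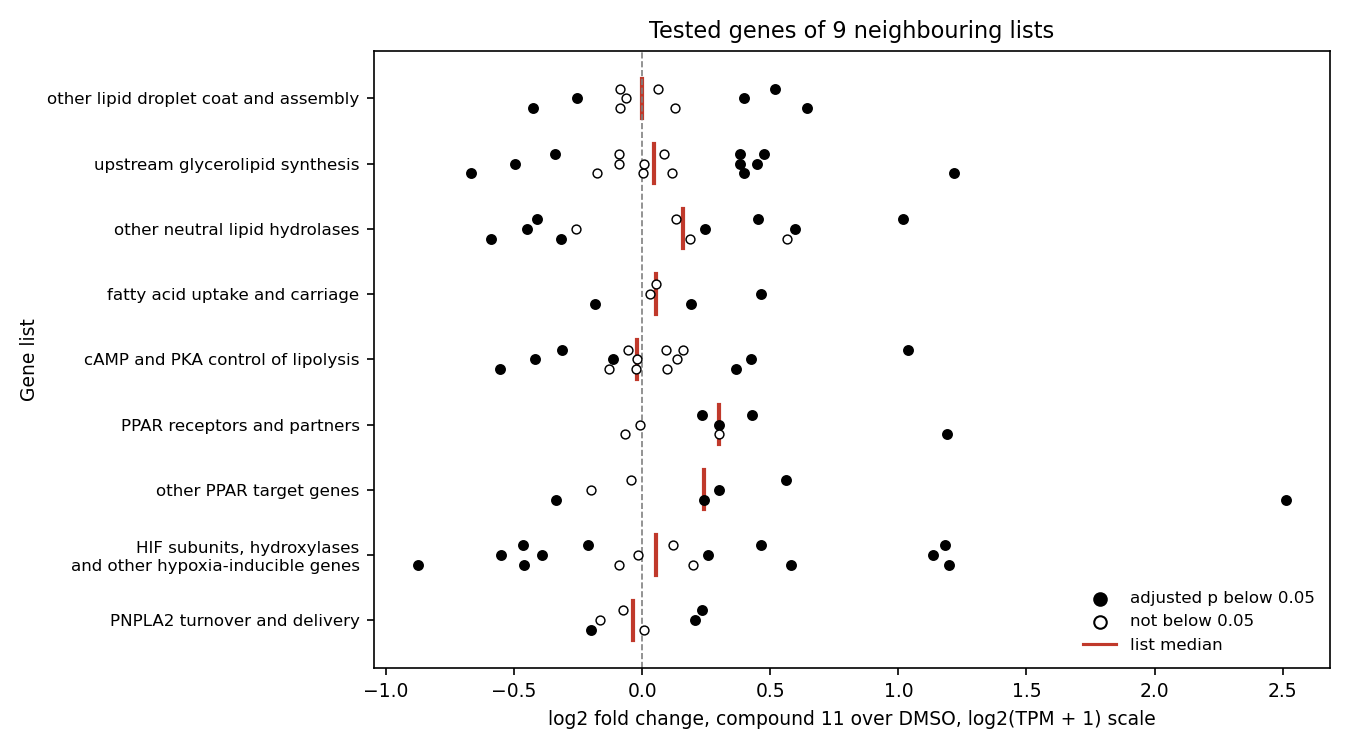
Log2 fold change, compound 11 over DMSO, of every tested gene on the 9 lists, on the log2(TPM + 1) scale from 3 libraries per group; filled points had an adjusted p below 0.05 and red bars are list medians. The medians lie between -0.03 and 0.30, and ANGPTL4 lies farthest to the right, at 2.51.

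Among all other tested genes with a symbol, the 6 log2 values of CASP1, the inflammatory caspase, lay nearest to those of G0S2 once each gene was centred on its mean (Euclidean distance 0.17). CASP1 was at 153 TPM with compound 11 and 11.4 TPM with DMSO. STC1 and SIGLEC15 came next, at distances of 0.24 and 0.29. Those nearest to MGLL were TMEM255B, IKBKE and FOSL1, at distances of 0.12, 0.16 and 0.16, each between 2.48-fold and 2.62-fold higher with compound 11. With 2 groups this likeness is mostly that of the fold change.

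Markers of other cell types bear on the identity of the cells. None of 7 adipocyte markers reached 1 TPM and 5 of them, ADIPOQ, LEP, CIDEC, LPL and RETN, were listed at 0 in all libraries. The summed adipocyte markers were at 0.21 to 0.68 TPM with compound 11 and 0 to 0.41 TPM with DMSO. Of 9 stellate cell markers, 7 reached 1 TPM, while DES was listed at 0 in all libraries and LRAT, which makes retinyl esters, did not exceed 0.028 TPM. The sum of the 9, mostly VIM, was 7509 to 7713 TPM with compound 11 and 7675 to 7997 TPM with DMSO. That sum hides opposite changes: VIM rose, at 7512 TPM with compound 11 and 6400 TPM with DMSO, whereas ACTA2, COL1A1, COL3A1 and PDGFRB fell. ACTA2 was at 6.28 TPM with compound 11 and 176 TPM with DMSO, and COL1A1 at 102 TPM with compound 11 and 1132 TPM with DMSO. COL3A1 was at 3.95 TPM with compound 11 and 60.2 TPM with DMSO, and PDGFRB at 9.75 TPM with compound 11 and 26.5 TPM with DMSO. Of 9 hepatocyte markers 2 reached 1 TPM, with sums of 19.9 to 28.6 TPM with compound 11 and 4.42 to 5.54 TPM with DMSO that were mostly SERPINA1, while APOA1, APOB, TTR and HNF4A were at 0. Of 7 macrophage markers 3 reached 1 TPM, with sums of 138 to 155 TPM with compound 11 and 86.6 to 89.6 TPM with DMSO, mostly CD68, and none at 0 throughout. Of 6 endothelial markers 2 reached 1 TPM (sums of 7.54 to 8.21 TPM with compound 11 and 1.84 to 2.25 TPM with DMSO, LYVE1 at 0), and of 5 cholangiocyte markers 3 did (38.3 to 38.9 TPM with compound 11 and 26.1 to 31.7 TPM with DMSO, mostly SOX9, with CFTR at 0). The part of these differences in the results for the 10 genes was not tested, and in bulk RNA fewer cells of a type and less RNA per cell cannot be told apart.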

How the data were processed

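RNA-seq values of 6 libraries of LX-2 cells, 3 per group, were used as the authors deposited them, 1 value per gene and library. The headers name FPKM, but each deposited column sums to 1000000, so the values were taken as TPM, the name used throughout. That sum alone does not show scaling by transcript length, which was not checked. The design had assumed FPKM, and the same test was used. TPM keeps no sequencing depth, so depth is unknown and no counting error is given. The submitters' processing notes list Bowtie 0.12.2, GRCh38.p12 and the mouse build mm8, without roles. How reads were counted, with or without strand, is not given in the sources used here. Group and replicate number came from the sample labels.

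Genes reaching 1 TPM in 3 or more libraries, 12067 in all, were tested on log2(TPM + 1) with limma 3.58.1 in R 4.3.3 (linear model on group, variance trend, two-sided, Benjamini-Hochberg over all tested genes, threshold 0.05). The code was tested on simulated data. Within-library ratios were tested by exact permutation (scipy 1.17.1). Positions came from GENCODE v29 (GRCh38) and promoters from RefSeq (GRCh38.p14). The members and lists were chosen with earlier results of these data known. Named genes are the 10 members, up to 4 of each list with the smallest adjusted p, and the coat genes of fat cells. The 3 genes nearest to each of the 2 members with the largest change are also named. PRKACB, PPARG, PDE3A, PDE3B and the remaining genes of the hypoxia list that passed were named outside that rule. AL031316.1, ANO10, SEC61A1 and HSF1 were added because they overlap members, and the markers because they define cell types. All markers but 1, which is left out and not reported here, enter the summed levels, and a part of them is named. Alternatives were pseudocounts of 0.1 and 0.01, no filter, a mean of at least 5 TPM, upper quartile scaling, quantile normalization, removal of the 20 most abundant genes, no variance trend, a replicate block, each library left out in turn and, chosen after seeing the data, a loess correction for GC content and length (span 0.3). Count-based tests were not used because the values are not counts.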

Additional observations from a re-analysis of the deposited data

How the results depend on the processing

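The rises of G0S2, MGLL, PNPLA2, DGAT2, PLIN2 and ABHD5 kept their direction and stayed past the threshold under all 16 alternatives, with log2 fold changes of 3.65 to 3.81 for G0S2, 1.23 to 1.33 for MGLL, 0.56 to 0.63 for PNPLA2, 0.48 to 0.59 for DGAT2, 0.40 to 0.53 for PLIN2 and 0.30 to 0.40 for ABHD5. The fall of PLIN3 was lost without DMSO replicate 2 and held under the others. With each library left out in turn, 6 to 7 members passed, 6 in each case higher and 0 to 1 lower, and 5204 to 5536 genes of all tested passed. Of the genes that did not pass, signs changed: without the 20 most abundant genes the log2 fold change was 0.015 for LIPE and 0.013 for DGAT1; DGAT1 was at 0.082 without DMSO replicate 1 and 0.06 without compound 11 replicate 2, ranging from -0.077 to 0.082 as single libraries were left out; LIPE was at 0.03, 0.07, 0.04 and 0.11 without DMSO replicates 2 and 3 and compound 11 replicates 2 and 3, ranging from -0.183 to 0.113; HILPDA was at -0.002 without DMSO replicate 3 and -0.028 without compound 11 replicate 2, ranging from -0.028 to 0.136. The cause was not tested. The 5 ratios kept their direction when each library was left out, with 1 added to each value, and in pairs of same-numbered libraries. Same-numbered libraries correlated weakly in their deviations from the group mean (0.079, 0.149 and 0.066), although each library correlated best with its own number. Whether the replicate number pairs the libraries was left undecided. With the replicate block 7 members and 6226 genes passed. Single-list counts moved by over 1.5 times in 25 of 288 cases, most of them with 1 library left out; among the others, the coat and assembly genes that fell numbered 1 with no filter or no variance trend, the uptake genes that rose numbered 1 and the PNPLA2 turnover genes that fell 0 under quantile normalization, and the GC and length correction gave 2 PNPLA2 turnover genes and 1 PPAR receptor or partner that fell. Unknown depth leaves the counting error of low genes such as LIPE and DGAT1 unmeasured.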
